A study of Mus musculus with 18 samples.

Results

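The loss of CD45 in group 2 innate lymphoid cells (ILC2) of the bone marrow was measured as a single genotype effect over 2 maturation stages. It was read from 12 of the 18 libraries of the study, 6 labelled CD45 KO and 6 controls, and covered all genes with enough counts. Each genotype had 3 libraries labelled Mature ILC2 and 3 labelled Immature ILC2 (ILC2P), and stage entered the model as a covariate. The mice without CD45 carried the genotype CD45 KO x Rag2 KO, and the controls were Rag2 KO. The sample titles call the controls WT, but the genotype labels give them the Rag2 deletion too, so every mouse compared here lacked Rag2 and with it T and B cells. The labels name no age, no strain, no way in which Ptprc was deleted, and no animal behind a library. The p-values below therefore measure the spread between these libraries, which may be partly technical, and whether both stages came from the same mice is not given. The treatment label gives 200 sorted cells, while the extract protocol speaks of tubes with 100 cells, and which of these applies is left unsettled by the labels.

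ILC2 sense epithelial alarmins such as interleukin 33 and answer with type 2 cytokines, and the marrow holds their precursors beside cells with a mature surface phenotype. CD45, the product of Ptprc, is an abundant receptor tyrosine phosphatase of blood cells. It removes the inhibitory phosphate from Src-family kinases and can also act on Janus kinases, which carry signals from cytokine and interferon receptors to STAT transcription factors. Among the genes that interferons switch on are the interferon-inducible GTPases, large enzymes that attack the vacuoles of intracellular parasites and bacteria.

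The 12 libraries held between 69987 and 122250 counts over 7669 to 8793 detected genes, so 3 counts, the limit that a count of 0 allows, corresponded to 24.7 to 44.2 normalised CPM (counts per library, scaled to its size) for counting error only. Of 24781 gene entries 1640 were tested, with a median mean of 13.9 counts per library. All 12 ILC2 markers were detected and tested, and their summed level lay between 6428 and 8341 CPM in CD45 KO and between 6880 and 9002 CPM in control libraries. Cd3e, Cd4, Cd8a, Pax5, Ncr1, Eomes, Il22, Itgax, Csf1r and Siglecf, which define T, B, NK, ILC3, dendritic, monocyte or eosinophil populations, were at 0 in all 12 libraries. Xist was at 0 and the Y-linked Ddx3y had 4 to 13 counts in every library. Mature control replicate 1 stood apart in neutrophil genes, with 2725 CPM over 10 markers (75 counts of S100a8 and 67 of S100a9). The lowest mature control held 97.4 CPM, while no CD45 KO library exceeded 68.0 CPM and no immature control 43.4 CPM. Each mature control was thus above each CD45 KO library in this sum. Outside replicate 1 this rested on few counts, with 6 and 4 of S100a8 in mature control replicates 2 and 3. The library labelled mature CD45 KO 1 stood apart more broadly. Its counts differed from the other libraries of its group 3.80 and 4.05 times as much as sampling noise allows, against 1.11 to 1.72 times for the 10 other replicate pairs, and the ribosomal RNA entry Rn45s took 16.1% of its counts against 6.99 to 12.7% elsewhere. Values without one or the other of these libraries are given beside the results that they move.

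Ptprc, the gene deleted, is a protein-coding gene on chromosome 1 (138062861 to 138175708, minus strand, mm10). It was at 231, 98.7 and 84.9 CPM in the mature and at 95.9, 137 and 40.6 CPM in the immature CD45 KO libraries. Mature controls had 250, 449 and 526 CPM and immature controls 455, 356 and 327 CPM. All 6 CD45 KO libraries lay below all 6 controls, and the narrowest gap was between the library labelled mature CD45 KO 1 and mature control replicate 1. The pooled log2 fold change was -1.84 ± 0.22 (SE; edgeR's quasi-likelihood test, Benjamini-Hochberg adjusted p = 7.05e-08), and -2.09 without that CD45 KO library. Counts from oligo-dT primed cDNA come from transcript ends, and those that remained do not measure intact transcript.

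With the stages pooled, 49 of 1640 genes (2.99%) passed at an adjusted p under 0.05, 28 of them higher in CD45 KO (1.71%) and 21 lower (1.28%), against 281 genes (17.1%) at an unadjusted p under 0.05. Changes were mostly below 2-fold: the median absolute log2 fold change of the 49 was 0.80, and 9 higher and 6 lower genes exceeded 2-fold. Genes with few reads made up much of the list, since 24 of the 49 had a mean below 20 counts per library. All 6 CD45 KO libraries lay to the same side of all 6 controls for 26 genes (1.59%), 18 of which passed. Libraries were apart in the same direction within each stage for 42 genes (2.56%; 1.4% higher, 1.16% lower), 26 of which passed. Without the library labelled mature CD45 KO 1 the count was 104 (6.34%), 60 of them higher (3.66%) and 44 lower (2.68%), with all 49 among them, and without immature control replicate 2 it was 31. Leaving out each of the other 10 libraries gave 39 to 47 genes. In 20 of the 49 the call held with each library left out and in each other setting in which the gene was tested, which were 13 settings for most, 12 for Iigp1, Gimap4 and 1700017B05Rik and 11 for Plac8.

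**Figure D1:**
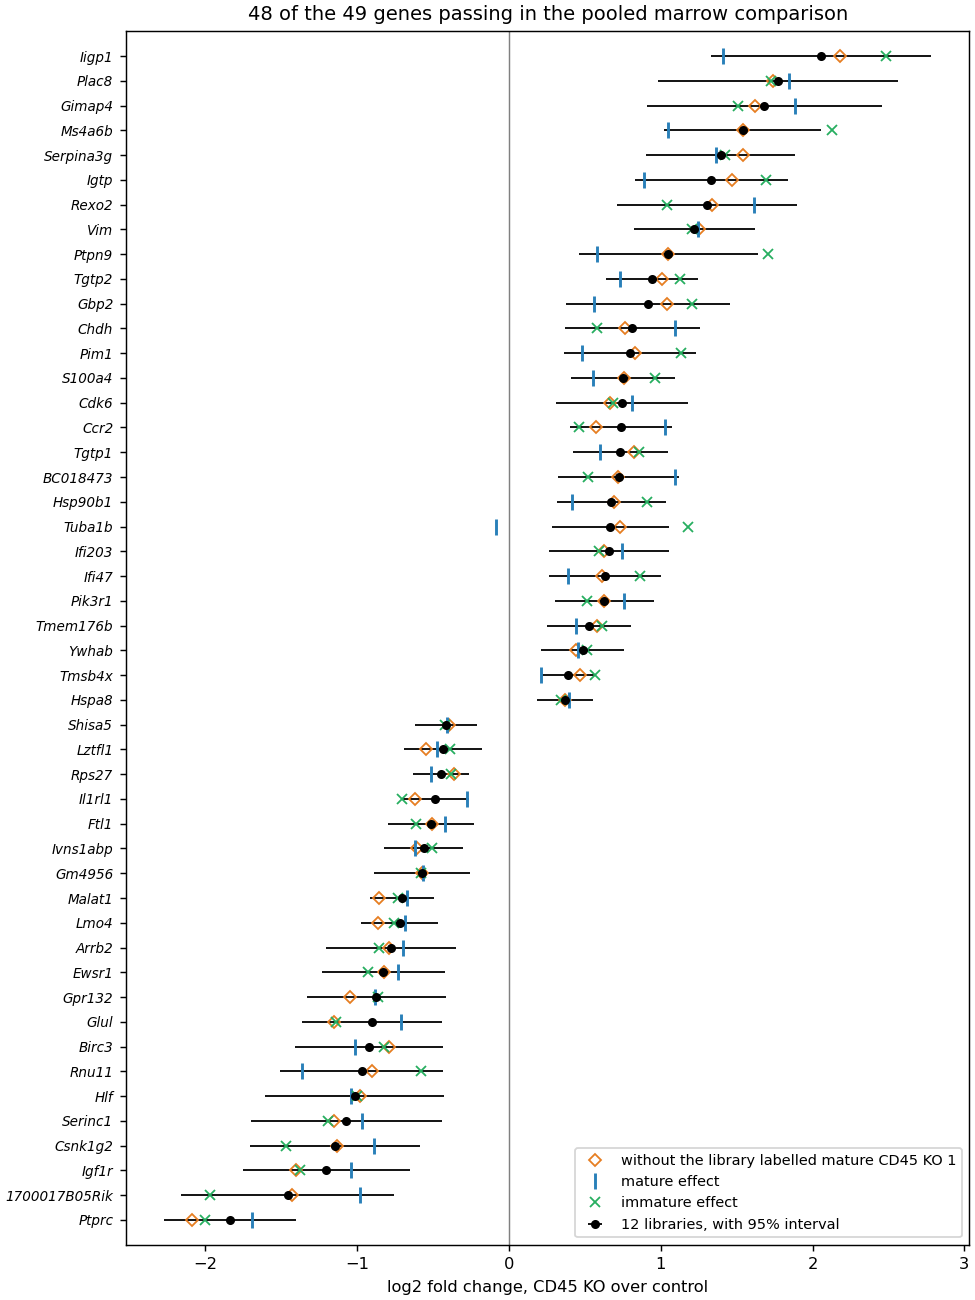
The log2 fold change of CD45 KO over control (horizontal axis) for 48 of the 49 genes that passed, as a black point with its 95% interval over 12 libraries. Blue bars and green crosses give the effect within mature and immature ILC2, and orange diamonds the pooled effect without the library labelled mature CD45 KO 1. The stage effects lie on the same side of 0 for every gene shown except Tuba1b.

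Interferon-inducible GTPases were the group with the most passing members. Of 19 on the list, 12 had enough counts, 6 rose and 0 fell, beside 1.71% of all genes rising and 1.28% falling. Of the 12, 11 had values above 0, with a median log2 fold change of 0.67. Among all 1640 genes 791 values were positive and the median was -0.01. The same 1.71% and 1.28% stand beside the calls of each later list in the pooled test of 12 libraries. A single call in a list is not read as a result about its members. Iigp1 (Irga6), Tgtp1 and Tgtp2 are immunity-related GTPases that load onto pathogen vacuoles. Igtp (Irgm3) and Ifi47 (Irgd) are further members of that family, and Gbp2 belongs to the guanylate-binding proteins. Tgtp2 was at 427, 502 and 671 CPM in mature and 623, 696 and 782 CPM in immature CD45 KO libraries. Its levels were 412, 286 and 292 CPM in mature and 347, 244 and 374 CPM in immature controls. The genotypes did not overlap for Tgtp2, which rose by 0.94 ± 0.15 on the log2 scale (adjusted p = 4.83e-05).

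Igtp was at 69.2, 206 and 229 CPM in mature and 268, 301 and 244 CPM in immature CD45 KO libraries, against 162, 81.6 and 58.4 CPM in mature and 86.8, 71.2 and 93.5 CPM in immature controls. The library labelled mature CD45 KO 1 was the sole CD45 KO value within the control range, and the other 5 lay above all 6 controls. Igtp rose by 1.33 ± 0.25 (adjusted p = 0.000534), and by 1.47 without that CD45 KO library. Iigp1 had the largest fold change of all genes tested, 2.05 ± 0.36 (adjusted p = 0.00015): its lowest, median and highest levels were 34.6, 133 and 292 CPM in CD45 KO and 10.2, 32.1 and 65.1 CPM in control libraries. Only the library labelled mature CD45 KO 1 fell inside the control range of Iigp1, whose fold change was 2.18 without it. Tgtp1 rose by 0.73 ± 0.16 (adjusted p = 0.00352), with levels of 300 to 569 CPM in CD45 KO and 244 to 368 CPM in control libraries. Ifi47 (0.63 ± 0.18, adjusted p = 0.043) and Gbp2 (0.91 ± 0.27, adjusted p = 0.0464), named after their values were seen, passed narrowly, in 5 and 3 of the 12 fits with 1 library left out, with a highest adjusted p of 0.154 and 0.139. The members that did not pass were Gbp4 (0.68, adjusted p = 0.058), Gbp7 (0.49, 0.073), Gvin1 (0.39), Gbp8 (0.58), Gbp6 (0.66) and Irgm1 (-0.25).

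**Figure D2:**
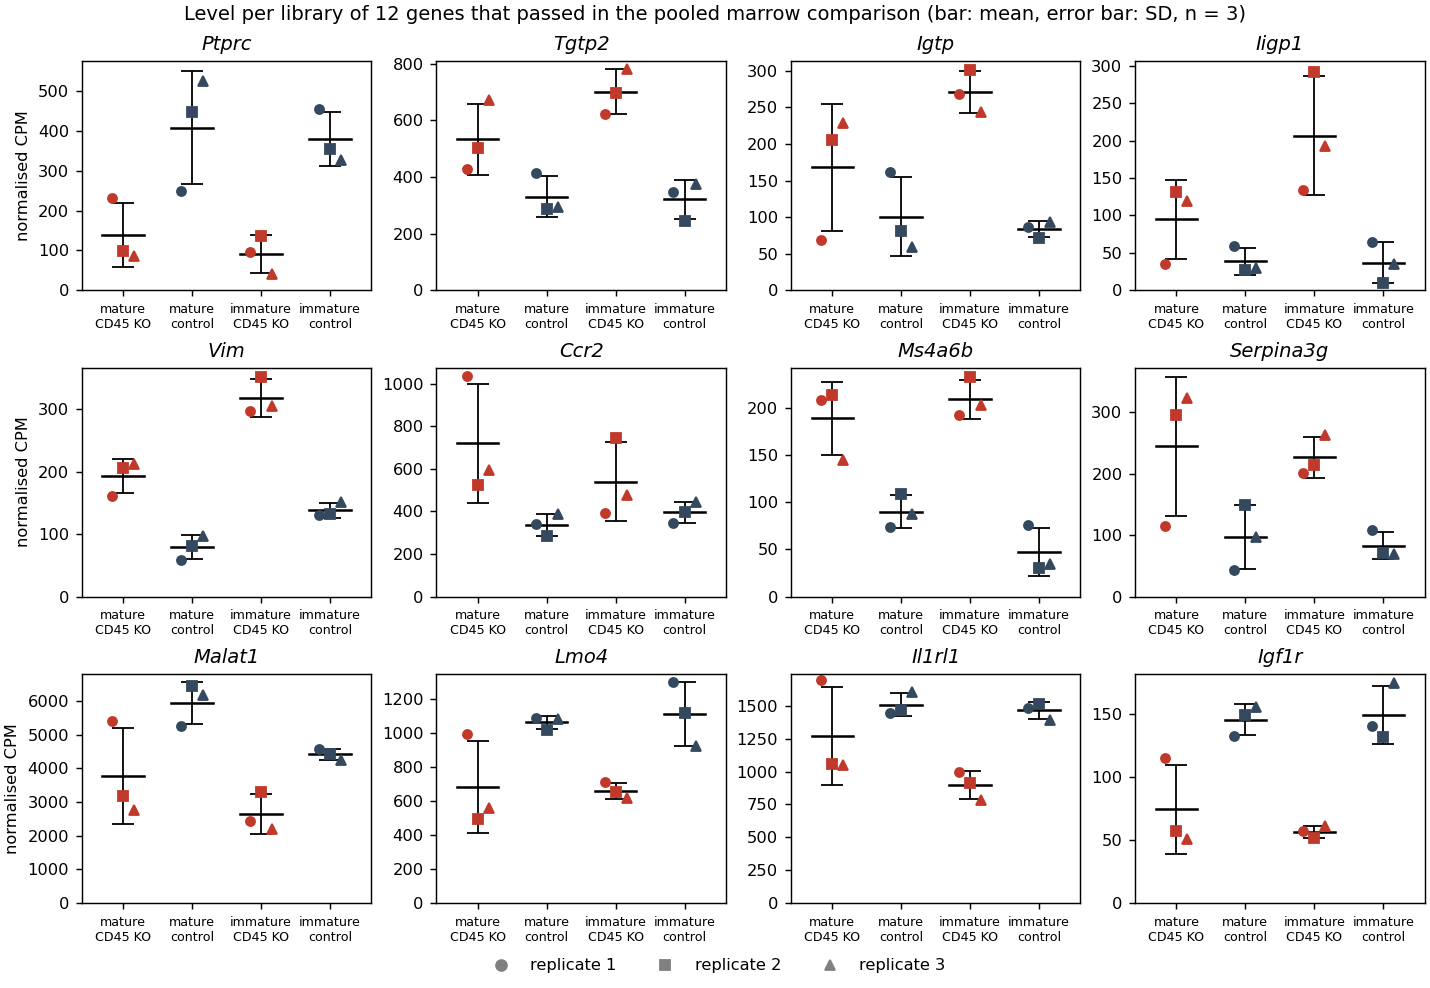
Normalised CPM (vertical axes, from 0) of 12 genes in each library, with CD45 KO in red left of control in blue for mature and for immature ILC2. Symbols mark replicates 1 to 3, black bars the mean and error bars the SD (n = 3). Ptprc, Tgtp2, Vim, Ms4a6b and Igf1r have no CD45 KO library within the range of the 6 controls, and replicate 1 of mature CD45 KO lies towards the controls for Igtp, Iigp1, Malat1, Lmo4 and Il1rl1.

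Summed over the 19 GTPases, the levels were 3173, 3486 and 3729 CPM in mature and 3673, 4234 and 4022 CPM in immature CD45 KO libraries. Mature controls held 2475, 2489 and 2289 CPM and immature controls 2288, 2177 and 2303 CPM. Each CD45 KO library was thus above each control in this sum, the library labelled mature CD45 KO 1 included. In that library, however, Igtp (69.2 CPM), Iigp1 (34.6 CPM) and Tgtp1 (300 CPM) lay within the control range. Tgtp2 (427 CPM) was just above the highest control (412 CPM). The higher sum of that library therefore came mainly from other members of the list. Tgtp1 and Tgtp2 are near-identical neighbours on chromosome 11 and Igtp overlaps Irgm2 on the same strand, so how the authors' counting divided reads among them is uncertain.

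The promoters of the passing interferon genes were read from RefSeq (GRCm38.p6), which held 6 of the 8 (Tgtp1, Tgtp2, Igtp, Gbp2, Ifi47 and Ifi203). They were searched on both strands for the core of the interferon-stimulated response element (GAAA, NN and GAAA in a row), to which interferon-activated complexes bind, and for the gamma-activated site GAS (TTC, NNN and GAA in a row). The response element core was present in 5 of the 6 genes and GAS in 3, beside 4.5% and 8.29% of the 1266 tested genes with a promoter in the table, and 3.44% and 8.3% of all its 32851 promoters. The 6 genes were taken because they are on the interferon lists, so a high share of interferon motifs can follow from that choice. It says nothing about CD45 loss. Among the 23 higher genes with a promoter there, 5 held the core, and these were the same 5 genes. GAS was in 5 of the 23 (Tgtp1, Tgtp2, Igtp, Chdh and Serpina3g). Among the 17 lower genes 2 (Glul and Shisa5) held the core and 1 (Shisa5) held GAS. The 60 bases below, 5' to 3' on the strand of the gene, are shown because Tgtp1, Tgtp2 and Igtp, 3 of the 4 passing GTPases on chromosome 11, share the same pair of motifs in the same order. The window of Ifi47, the other one, held neither motif. Capitals mark GAS and the response element core, and in Gbp2 the core on the opposite strand. The windows are chr11:48992289-48992348 (minus strand) for Tgtp1, chr11:49064248-49064307 (minus) for Tgtp2, chr11:58199497-58199556 (plus) for Igtp, chr3:142620579-142620638 (plus) for Gbp2 and chr1:173942493-173942552 (minus) for Ifi203.
Tgtp1: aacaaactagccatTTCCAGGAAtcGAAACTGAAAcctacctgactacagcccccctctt
Tgtp2: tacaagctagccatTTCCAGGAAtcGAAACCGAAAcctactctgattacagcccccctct
Igtp: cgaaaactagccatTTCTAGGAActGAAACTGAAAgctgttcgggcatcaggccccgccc
Gbp2: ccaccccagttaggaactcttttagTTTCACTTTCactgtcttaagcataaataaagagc
Ifi203: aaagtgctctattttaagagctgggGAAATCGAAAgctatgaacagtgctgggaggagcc

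In Tgtp1, Tgtp2 and Igtp, 2 bases lie between GAS and the core, so the motifs do not overlap. The first base of the core stands 77, 70 and 34 bases before the start of Tgtp1, Tgtp2 and Igtp, and 59 and 35 bases before the start of Gbp2 and Ifi203. A match is a description of these letters and was not tied to binding.

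Other interferon response genes moved less. Of 56 on that list 17 were tested, 2 rose, 0 fell, and 12 were above 0, with a median of 0.28. Ifi203, a DNA-sensing PYHIN family gene that overlaps its relative Mndal, was at 156 to 280 CPM in CD45 KO and 88.4 to 187 CPM in control libraries (0.66 ± 0.20, adjusted p = 0.049), and passed in 3 of the 12 fits with 1 library left out (highest adjusted p = 0.125). Nlrc5, an activator of MHC class I genes (0.88, adjusted p = 0.088), and Irf1 (-0.11, adjusted p = 0.86) did not pass. Antigen presentation genes had 16 tested members of 23, of which 0 passed and 14 were positive with a median of 0.21, among them B2m at 0.23 (adjusted p = 0.098) and Cd74 at 0.78 (adjusted p = 0.10).

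Several genes of the cytoskeleton and adhesion list rose. Vim, encoding the intermediate filament vimentin, was at 162, 206 and 212 CPM in mature and 297, 352 and 305 CPM in immature CD45 KO libraries, against 58.9, 81.6 and 97.4 CPM in mature and 130, 132 and 152 CPM in immature controls. Vim levels did not overlap between genotypes, and it rose by 1.22 ± 0.20 (adjusted p = 5.29e-05). S100a4, a calcium-binding protein linked to cell motility, was at 292 to 422 CPM in CD45 KO and 142 to 286 CPM in control libraries, again without overlap (0.75 ± 0.17, adjusted p = 0.00588). Tmsb4x, which sequesters actin monomers, rose by 0.39 ± 0.09 (adjusted p = 0.00588), with 5803 to 7979 CPM in CD45 KO and 4394 to 6938 CPM in control libraries. Of 40 genes on the cytoskeleton and adhesion list 28 were tested, 4 rose (Vim, S100a4, Tmsb4x and Tuba1b), 0 fell, and 23 were positive with a median of 0.18. Actb (0.23, adjusted p = 0.12), Coro1a (0.28) and Rhoa (-0.18) did not pass.

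Ccr2, the receptor for monocyte chemoattractant chemokines, was at 1038, 526 and 595 CPM in mature and 393, 747 and 477 CPM in immature CD45 KO libraries. Mature controls had 339, 286 and 390 CPM and immature controls 347, 397 and 444 CPM. The genotypes did not overlap in mature ILC2, while 1 immature CD45 KO library lay within the immature control range. Ccr2 rose by 0.74 ± 0.17 (adjusted p = 0.00588), and by 0.57 without the library labelled mature CD45 KO 1, where it was highest. On the list of chemokine receptors and trafficking, of 37, it was the sole one of 12 tested genes to pass, with 6 positive values and a median of 0.02. Ms4a6b, of the MS4A family of membrane proteins, was at 144 to 232 CPM in CD45 KO and 30.5 to 109 CPM in control libraries, with no overlap (1.54 ± 0.26, adjusted p = 8.55e-05). It alone passed among 15 tested surface receptor genes of 37, with 7 positive values and a median of -0.13. Plac8, a small cysteine-rich protein of leukocytes, was at 68.0 to 152 CPM in CD45 KO and 9.74 to 61.0 CPM in control libraries, with no overlap and a mean of 7.08 counts (1.77 ± 0.39, adjusted p = 0.00563). Gimap4, a lymphocyte GTPase of the GIMAP family, was at 65.8 to 161 CPM in CD45 KO and 0 to 70.1 CPM in control libraries (1.68 ± 0.39, adjusted p = 0.00591).

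Monocytes also express Ccr2, Vim and S100a4. On the monocyte and macrophage list Ccr2 was the sole tested member of 12, the summed level was 412 to 1050 CPM in CD45 KO and 286 to 479 CPM in control libraries, and Csf1r, Adgre1, Fcgr1, Itgam and Cd14 were at 0 throughout. Lyz2 had 1 count in the 12 libraries. The part of other cells in these increases was not tested further. In sorted populations such as these, fewer cells of a kind and less RNA per cell cannot be told apart. Without mature control replicate 1, the library highest in neutrophil genes, 41 genes passed, and the fold changes of Vim, Ccr2 and Ms4a6b kept their calls.

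Serpina3g, a serpin-family protease inhibitor, was at 115, 296 and 323 CPM in mature and 201, 215 and 264 CPM in immature CD45 KO libraries, against 44.2, 150 and 97.4 CPM in mature and 108, 71.2 and 70.1 CPM in immature controls (1.39 ± 0.24, adjusted p = 0.00015). The overlap in Serpina3g came from the library labelled mature CD45 KO 1, and its fold change was 1.54 without it. Rexo2, an oligoribonuclease of mitochondria, was at 102 to 164 CPM in CD45 KO and 27.2 to 70.1 CPM in control libraries, with no overlap (1.30 ± 0.29, adjusted p = 0.00588). Pik3r1, the regulatory subunit of phosphoinositide 3-kinase, was at 301 to 370 CPM in CD45 KO and 147 to 269 CPM in control libraries, also with no overlap (0.63 ± 0.16, adjusted p = 0.0204). Its call was lost without mature control replicate 1, mature CD45 KO replicate 2 or immature control replicate 1 (highest adjusted p = 0.064). Among 15 tested genes of proximal receptor signalling, of 37 listed, Pik3r1 was the sole one to pass, and the Src-family kinase gene Fyn (0.58, adjusted p = 0.27), the inhibitory kinase gene Csk (-0.18) and the adaptor gene Lat (0.05) did not.

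Ptpn9, a cytosolic tyrosine phosphatase, rose by 1.05 ± 0.29 (adjusted p = 0.0331), with 125 to 198 CPM in CD45 KO and 0 to 150 CPM in control libraries. It and Ptprc were the 2 passing genes among 9 tested tyrosine phosphatase genes of 30, while Ptpn2 (0.55, adjusted p = 0.49), Ptpn7 (-0.04) and Ptprcap, encoding the CD45-associated protein (0.04), did not pass. Pim1, a survival kinase induced through STAT factors, rose by 0.80 ± 0.22 (adjusted p = 0.0281), and was the sole passing member of 10 tested genes of the JAK-STAT feedback list, of 21. Socs2 (0.65, adjusted p = 0.15), Cish (0.33) and Socs1 (0.24) did not pass. Cdk6, a kinase of the G1 phase, rose by 0.75 ± 0.22 (adjusted p = 0.043). Ptpn9, Pim1 and Cdk6 passed in 7, 6 and 4 of the 12 fits with 1 library left out, with a highest adjusted p of 0.117, 0.0992 and 0.126. The remaining higher genes, named after their values were seen, were the membrane protein gene Tmem176b (0.53), the choline dehydrogenase gene Chdh (0.81), the 14-3-3 gene Ywhab (0.48) and the transcript BC018473 (0.72), which passed in 5 to 8 of those 12 fits.

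Chaperone genes had mostly positive fold changes and few calls. All 17 tested cytosolic chaperones, of 27 listed, were above 0, with a median of 0.28, and 1 passed. Hspa8, the constitutive Hsc70, was at 1640 to 1960 CPM in CD45 KO and 1143 to 1473 CPM in control libraries, with no overlap (0.37 ± 0.09, adjusted p = 0.0118), and lost its call without mature control replicate 2 or immature CD45 KO replicate 3 (highest adjusted p = 0.0574). Of 18 tested genes of the unfolded protein response list, of 29, Hsp90b1, a chaperone of the endoplasmic reticulum, was the sole one to pass (0.67 ± 0.18, adjusted p = 0.0216). It passed in 7 of 12 fits with 1 library left out (highest adjusted p = 0.0988). On the proliferation list, 11 of 40 were tested and Tuba1b and Cdk6 passed, with 7 positive values and a median of 0.43. Oxidative phosphorylation genes had 36 positive values among 45 tested of 98, a median of 0.20 and 0 calls, and ribosomal protein genes 28 among 81 tested of 85, a median of -0.04 and 1 call, Rps27.

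**Figure D3:**
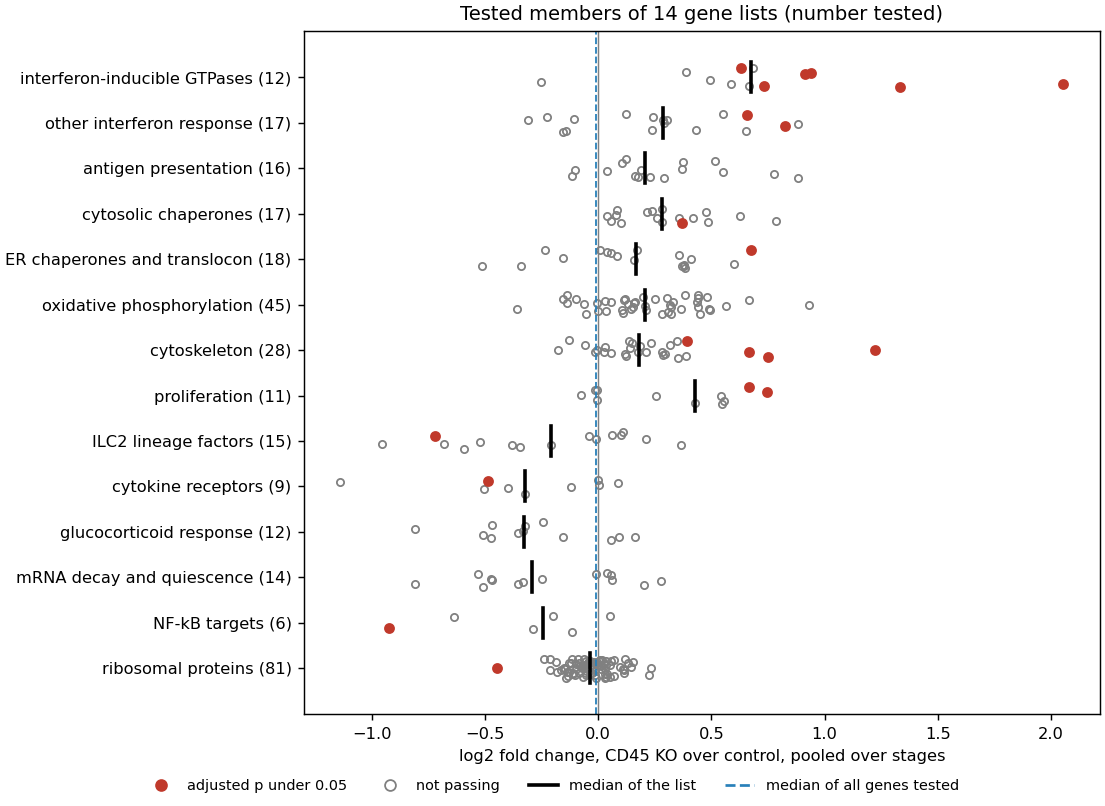
Pooled log2 fold change of CD45 KO over control (horizontal axis) for each tested member of 14 gene lists, with the number tested in brackets. Filled red points passed at an adjusted p under 0.05, open points did not, black bars are list medians and the dashed line the median of all 1640 genes. Among these 14, interferon-inducible GTPases have the highest median (0.67) and glucocorticoid response genes the lowest (-0.33).

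Il1rl1, which encodes the interleukin 33 receptor ST2, fell in CD45 KO ILC2. It was at 1696, 1061 and 1053 CPM in mature and 997, 910 and 782 CPM in immature CD45 KO libraries, against 1444, 1469 and 1607 CPM in mature and 1486, 1516 and 1391 CPM in immature controls. The library labelled mature CD45 KO 1 was above all controls and the other 5 CD45 KO libraries were below all of them. The pooled change was -0.49 ± 0.11 (adjusted p = 0.00588), and -0.62 without that library. Lmo4, a LIM-domain transcriptional cofactor, had lowest, median and highest levels of 493, 636 and 992 CPM in CD45 KO and 924, 1086 and 1301 CPM in control libraries (-0.72 ± 0.13, adjusted p = 0.00015). Its libraries were apart within each stage, and its change was -0.86 without the library labelled mature CD45 KO 1. Malat1, a nuclear long noncoding RNA, was at 5399, 3174 and 2752 CPM in mature and 2446, 3306 and 2194 CPM in immature CD45 KO libraries, against 5244, 6435 and 6175 CPM in mature and 4565, 4435 and 4244 CPM in immature controls (-0.70 ± 0.11, adjusted p = 1.85e-05). Again the library labelled mature CD45 KO 1 alone reached the control range, and the change was -0.86 without it.

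Igf1r, the insulin-like growth factor receptor, was at 51.0, 57.5 and 115 CPM (lowest, median, highest) in CD45 KO and 132, 145 and 175 CPM in control libraries, with no overlap (-1.20 ± 0.27, adjusted p = 0.00588). Arrb2, encoding the receptor-desensitising beta-arrestin 2, was at 86.3 to 137 CPM in CD45 KO and 163 to 221 CPM in control libraries, also with no overlap (-0.78 ± 0.21, adjusted p = 0.0281), and passed in 7 of 12 fits with 1 library left out (highest adjusted p = 0.0819). Birc3, a ubiquitin ligase that controls NF-kB and cell death signalling, was at 46.2 to 120 CPM in CD45 KO and 129 to 204 CPM in control libraries (-0.92 ± 0.24, adjusted p = 0.0211). Its groups did not overlap either, and its call was lost without immature control replicate 1 or immature CD45 KO replicate 3 (highest adjusted p = 0.0647). Of 27 NF-kB targets 6 were tested and Birc3 alone passed, with 1 positive value and a median of -0.24. Gpr132, a G protein-coupled receptor of leukocytes, fell by 0.88 ± 0.23 on the log2 scale (adjusted p = 0.0208) and passed in 8 of 12 such fits (highest adjusted p = 0.0983).

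Glul, glutamine synthetase, was at 68.7 to 242 CPM in CD45 KO and 152 to 258 CPM in control libraries (-0.90 ± 0.23, adjusted p = 0.0171), and lost its call without mature CD45 KO replicate 2, immature control replicate 2 or immature CD45 KO replicate 2 (highest adjusted p = 0.0786). Ftl1, the ferritin light chain, changed by -0.51 ± 0.14 (adjusted p = 0.0281) and passed in 6 of 12 such fits (highest adjusted p = 0.102). Shisa5, a membrane protein of the endoplasmic reticulum induced by p53, was at 782 to 911 CPM in CD45 KO and 1075 to 1237 CPM in control libraries without overlap (-0.42 ± 0.10, adjusted p = 0.0105). Ivns1abp, a kelch-domain protein, changed by -0.56 ± 0.13 (adjusted p = 0.00637), the RNA-binding protein gene Ewsr1 by -0.83 ± 0.20 (adjusted p = 0.0105) and the casein kinase gene Csnk1g2 by -1.14 ± 0.28 (adjusted p = 0.0105), which lost its call without mature control replicate 3 (adjusted p = 0.0748). Rps27, of the small ribosomal subunit, was at 4626 to 7525 CPM in CD45 KO and 6866 to 9359 CPM in control libraries (-0.45 ± 0.09, adjusted p = 0.0018), and reads of such genes can be shared with pseudogenes. Named after their values were seen, the rest were Hlf (-1.02), a circadian-type transcription factor gene, Serinc1 (-1.07), Lztfl1 (-0.43), which overlaps Ccr9 on the other strand, the minor spliceosomal RNA Rnu11 (-0.97), and the transcripts 1700017B05Rik (-1.46) and Gm4956 (-0.57). Of these 6, 1700017B05Rik passed in all 12 fits with 1 library left out and the others in 3 to 7.

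A panel of ILC2 genes otherwise did not pass. Gata3, the lineage-defining transcription factor, averaged 1936 ± 310 CPM in CD45 KO and 2222 ± 393 CPM in control libraries (SD, n = 6 each; -0.21 ± 0.10, adjusted p = 0.271). Values for the others were -0.52 for Rora (adjusted p = 0.115), -1.14 for Kit (0.0681), -0.44 for Icos (0.195), -0.32 for Il7r (0.211), -0.39 for Ccr9 (0.143), 0.37 for Bcl11b (0.178) and 0.11 for Id2 (0.618). Thy1 (-0.16), Klrg1 (-0.15), Ly6a (0.09) and Il2ra (0.00) were closer to 0, with standard errors of 0.19, 0.31, 0.11 and 0.13. Il5, Il13 and Areg had too few counts to test, at most 34.6, 11.7 and 119 CPM in any of the 12 libraries. On the list of ILC2 lineage factors, 15 of 29 were tested, Lmo4 fell and 5 were positive with a median of -0.21, and on that of cytokine receptors 9 of 28 were tested, Il1rl1 fell and 2 were positive with a median of -0.32. Glucocorticoid response genes (12 tested of 20, 3 positive, median -0.33) and genes of mRNA decay and quiescence (14 of 21, 5 positive, median -0.29) had 0 calls.

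Without the library labelled mature CD45 KO 1, 55 further genes passed, 32 higher and 23 lower. Rora (-0.74 ± 0.16, adjusted p = 0.00117), Kit (-1.43 ± 0.39, adjusted p = 0.0154), the chromatin organiser gene Satb1 (-0.79 ± 0.21, adjusted p = 0.0119) and Zfp36l2, an mRNA decay factor (-0.72 ± 0.12, adjusted p = 3.22e-06), were among the lower ones, as were Gata3 (-0.28, adjusted p = 0.0374) and Il7r (-0.40, adjusted p = 0.0467). In that fit 4 of 15 tested lineage factors, 5 of 12 ILC2 markers, 3 of 12 glucocorticoid response genes and 3 of 14 mRNA decay genes fell with 0 rising, beside 2.68% of all genes. These lists share genes, and the 15 memberships stand for 10 genes, since Gata3, Il7r, Rora, Txnip and Zfp36l2 are on more than 1. On the higher side 8 of 12 tested GTPases, 7 of 28 cytoskeleton genes, 4 of 17 cytosolic chaperones and 3 of 45 oxidative phosphorylation genes passed, beside 3.66% of all genes. The library left out was the highest CD45 KO library for Rora, Kit, Gata3 and Il7r, at 531, 104, 2273 and 842 CPM. Each of these values lay within the control range. Leaving it out therefore enlarged these effects by construction, and the added calls are no separate support for them. Why this library differs was not tested.

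The stages were set against each other to ask whether the pooled effect hides different ones. Within mature ILC2 4 genes passed (0.244%) and within immature ILC2 24 (1.46%), and 3 and 18 of the 49 pooled genes were among them. In 30 of the 49 neither stage passed alone. Without the library labelled mature CD45 KO 1, which leaves 2 mature CD45 KO libraries, 11 genes (0.671%) passed in mature and 40 (2.44%) in immature ILC2, with 3 and 24 of those above among them, and 0 passed for the difference. No gene passed for the difference of effects (0 of 1640 by edgeR's quasi-likelihood test, smallest adjusted p = 0.897, and 0 by the Wald test of DESeq2), while 68 (4.15%) by edgeR and 20 by DESeq2 were at an unadjusted p under 0.05. The median standard error of that difference was 0.47 on the log2 scale, against 0.23 for the pooled effect. At this depth small differences were therefore not detectable, and large ones did not pass either. Mature minus immature, Slfn2 differed by 1.89 and Tuba1b by -1.26 (adjusted p = 0.897 for each by edgeR's quasi-likelihood test). That no gene passed thus does not show equal effects in the stages. Effects had the same sign in both stages for 48 of the 49 pooled genes, a share that pooling itself favours, and for 992 of all 1640 (60.5%). Across all tested genes the mature and immature effects had a Pearson correlation of 0.36, as a description over genes, which are not independent.

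For single genes the intervals of the difference were wide. Iigp1 changed by 1.41 in mature and 2.49 in immature ILC2, and the 95% interval of mature minus immature ran from -2.74 to 0.59. Ms4a6b changed by 1.04 in mature and 2.12 in immature ILC2 (interval -2.17 to 0.01), and Il1rl1 by -0.28 in mature and -0.71 in immature ILC2 (-0.01 to 0.86). Vim (1.25 mature, 1.21 immature, -0.74 to 0.82) and Malat1 (-0.67 mature, -0.73 immature, -0.38 to 0.49) were closer together. Without the library labelled mature CD45 KO 1 the mature effects were 1.73 for Iigp1, 0.98 for Ms4a6b, -0.52 for Il1rl1, 1.34 for Vim and -1.01 for Malat1, and the interval of the difference for Il1rl1 ran from -0.21 to 0.58. Tuba1b, an alpha-tubulin gene, stood out among the pooled calls. It was at 185, 214 and 221 CPM in mature and 547, 575 and 345 CPM in immature CD45 KO libraries, against 162, 258 and 234 CPM in mature and 206, 193 and 257 CPM in immature controls. The immature libraries were apart by genotype and the mature ones overlapped (-0.08 mature, 1.18 immature, unadjusted p of the difference = 0.000974). Its pooled value of 0.67 ± 0.19 (adjusted p = 0.0425) passed in 6 of 12 fits with 1 library left out (highest adjusted p = 0.173).

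Pooling also lost 7 genes that passed in 1 stage of the same fit. Slfn2, a Schlafen family gene that maintains lymphocyte quiescence, changed by 2.04 in mature and 0.15 in immature ILC2, and by 0.98 ± 0.32 pooled (adjusted p = 0.0772). Tnfaip3, encoding the NF-kB feedback inhibitor A20, changed by 0.22 in mature and -1.51 in immature ILC2, and by -0.64 ± 0.30 pooled (adjusted p = 0.264). The other 5 passed in immature ILC2: the GTPase gene Cdc42 (-0.06 mature, 0.89 immature), Hsp90aa1 (0.07, 0.86), the mitochondrial gene Chchd2 (0.11, 0.89), the histone gene Hist1h2ao (-0.52, 1.63) and Zfp36l2 (-0.14, -0.80). Their unadjusted p for the difference lay between 0.00267 (Cdc42) and 0.0319 (Zfp36l2), and these genes were chosen for passing in 1 stage. Without the library labelled mature CD45 KO 1, Slfn2 was at 2.10 and Tnfaip3 at 0.08 in mature ILC2, and Zfp36l2 was at -0.61 (unadjusted p of the difference = 0.445).

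**Figure D4:**
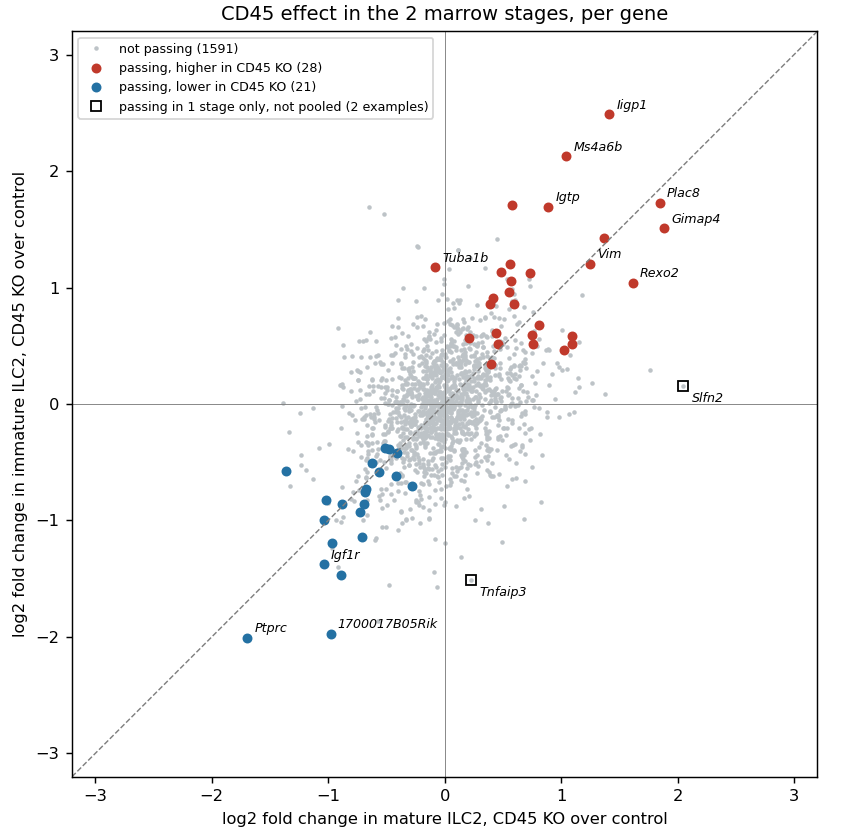
The log2 fold change of CD45 KO over control in mature (horizontal axis) and immature (vertical axis) marrow ILC2 for 1640 genes. Red points passed pooled and were higher in CD45 KO (28), blue points passed and were lower (21), grey points did not pass, and the dashed line marks equal effects. Slfn2 and Tnfaip3, boxed, passed in 1 stage and not pooled, and Tuba1b lies on the immature axis.

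The marrow effect was set against that in lung ILC2, represented by 3 CD45 KO x Rag2 KO and 3 Rag2 KO libraries, in a fit of all 18 libraries with 1916 genes. The difference, taken as lung minus the mean of the marrow effects, passed for 24 genes (1.25%), 16 positive and 8 negative. Lmo4 had opposite effects, -0.72 ± 0.12 in marrow and 0.84 ± 0.14 in lung, a difference of 1.56 ± 0.19 (adjusted p = 2.5e-09). Vim changed by 1.23 in marrow and -0.25 in lung (difference -1.48 ± 0.28, adjusted p = 0.00107), S100a4 by 0.76 and -0.34 (-1.10 ± 0.22, adjusted p = 0.00178) and Rexo2 by 1.33 and -0.69 (-2.03 ± 0.47, adjusted p = 0.0112). The receptor gene Gpr132 (-0.87 in marrow, 0.50 in lung) also differed (adjusted p = 0.0112), as did Ccr2, Birc3 and Shisa5 (adjusted p = 0.046, 0.02 and 0.046). In the 12 marrow libraries alone those 3 changed by 0.74, -0.92 and -0.42, and in lung by -0.02, 0.68 and 0.22. Of the 6 interferon-inducible GTPases passing in marrow none passed for the difference, beside 1.25% of all genes. In lung Tgtp2 was at -0.63 ± 0.64 (adjusted p of the difference = 0.26 by edgeR's quasi-likelihood test) and Gbp2 at -0.82 ± 0.58 (0.17). Iigp1 was at 0.17 ± 1.62 (0.82) and Igtp at 0.21 ± 0.96 (0.75). With errors this wide, neither the direction of these genes in lung nor a difference from marrow was settled. Ptprc itself changed by -1.86 in lung.

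The surroundings of Ptprc on chromosome 1 were counted separately. Within 20 megabases on either side 23 other genes were tested and 2 passed, Ivns1abp and Glul, beside 2.99% of all genes. On the whole of chromosome 1, Ptprc included, 7 of 112 tested genes passed, and on chromosome X 1 of 50, Tmsb4x.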

How the data were processed

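RNA was counted in 12 bone marrow ILC2 libraries in 4 groups of 3 (mature and immature, CD45 KO and control), and 6 lung libraries served the comparison with lung. Per the labels' protocols, lysates were reverse transcribed from an oligo-dT primer that holds a molecular barcode, with template switching and then PCR. The submitters' processing notes name STAR and mm10 without versions. Not given in the sources used here are the counting tool, its strand setting and any collapsing by barcode, and overlapping genes and near-identical copies are therefore uncertain. The authors deposited unscaled, whole-number counts for 24781 gene symbols, 12525 of them with no count in the 12 libraries. The table held 0 of the ERCC spike-ins that the protocol names, so changes are relative to the other genes. Totals of 69987 to 122250 counts set the precision, and limits given for a count of 0 cover counting error only, while standard errors and intervals of fold changes come from the spread between libraries.

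Counts were scaled with TMM factors and filtered with filterByExpr over the 4 groups (minimum count 10), which kept 1640 genes. A model with stage and genotype was fitted with edgeR 4.0.16 in R 4.3.3 and genotype was tested with its quasi-likelihood test, Benjamini-Hochberg adjusted over all genes tested with a threshold of 0.05. Stage differences came from the same model with an interaction, and lung differences from 6 group means over 18 libraries (1916 genes). Standard errors equal the log2 fold change, without its sign, over the root of F. Levels are CPM of TMM-scaled libraries, and the common dispersion had a square root of 0.0965. Positions came from GENCODE M21 (GRCm38, the assembly of mm10), which matched 1612 of 1640 symbols (98.3%), and promoters from RefSeq. The steps were tested on simulated data.

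The comparison, the gene lists and the panel were chosen with earlier results of these data known. Genes named were Ptprc, the panel, up to 15 passing genes in each direction by p, 4 passing members at most of each list and up to 8 genes passing for each difference of effects; gene models were left out by that rule, and list members that did not pass were chosen for naming later, with values known. A few genes that the rule gives are not reported here. Other settings were the size factors and Wald test of DESeq2 1.42.0, other filters, leaving out Rn45s and Rn4.5s, a replicate block, no stage covariate, means of stage effects, summed stages, voom in limma 3.58.1 and leaving out each library. Chosen after seeing the data were voom without a block and a fit without both mature libraries of replicate 1 (1 CD45 KO, 1 control), and the stage effects without the library labelled mature CD45 KO 1.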

Additional observations from a re-analysis of the deposited data

Results flagged for a closer look

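Single libraries far from the other 5 of their genotype were sought for 48 tested genes in each genotype, 96 groups in all, and 12 stood out; the critical value used lets through about 1 in 20 groups by chance, and these groups share libraries. In 7 of them the library was the one labelled mature CD45 KO 1. It held 1096 CPM of Id2 and 185 CPM of Ccr9, below the other CD45 KO libraries, and 1696 CPM of Il1rl1, 104 CPM of Kit, 5399 CPM of Malat1, 115 CPM of Igf1r and 196 CPM of Gpr132, above them. Mature CD45 KO replicate 2 was low for Ifi203 at 156 CPM. Among controls, mature replicate 1 was high for Igtp at 162 CPM, mature replicate 2 was low for Hspa8 at 1143 CPM and high for Hsp90b1 at 381 CPM, and immature replicate 2 was low for Rps27 at 6866 CPM.

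The CD45 effect differed between marrow and lung ILC2 by a contrast in edgeR's quasi-likelihood model for 13 of the genes named, with differences given as lung minus marrow on the log2 scale. They were positive for Lmo4 (1.56), Birc3 (1.59), Gpr132 (1.37) and Shisa5 (0.63), which fell in marrow, and negative for Vim (-1.48), Rexo2 (-2.03), S100a4 (-1.10) and Ccr2 (-0.77), which rose in marrow. Genes that did not pass in marrow were Kit (1.38), Icos (0.998), the Sca-1 gene Ly6a (0.97), the actin gene Actg1 (0.75) and the pseudogene Pisd-ps3 (-1.70), whose reads can be shared with its parent gene.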

How the results depend on the processing

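The pooled count of 49 genes was 31 to 104 with 1 library left out, 95 without both mature libraries of replicate 1, and 23 by the Wald test of DESeq2, all 23 among the 49. In the 11 other settings it lay between 38 and 57, and without a filter on low counts 39 of 54 genes were higher, so the share of higher calls was 72.2% against 57.1%. The stage difference gave 0 genes in every setting run. The lung difference of 24 genes became 26 with DESeq2 size factors (76.9% positive) and 36 by its Wald test (86.1%), against 66.7% positive. The direction of Il2ra and Klrg1, which did not pass, was not settled: Il2ra was at -0.00426 with at least 10 counts in 6 libraries, -0.000154 with summed stages, -0.00307 by voom with a replicate block, -0.00319 by voom without one, and -0.0601 to 0.0714 with 1 library left out, and Klrg1 was at -0.545 to 0.174 with 1 library left out. The cause was not tested.

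No pairing by replicate number was seen: deviations of same-numbered libraries of the same genotype correlated at -0.11 to 0.06 over 6 pairs, 0 of them over 0.1. Counting noise at this depth can hide a shared animal, so pairing was not excluded. With the number as a replicate block 43 genes passed, 0 for the stage difference and 23 for the lung difference. A median of 13.9 counts per tested gene limits what small changes can be seen.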
